A study of Mus musculus with 3 samples.

Results

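The comparison described here set a mouse fibroblast culture given 8 transcription factors against a culture given 7 of them, the labelled difference being Hhex. It used 2 of the 3 one-colour arrays of the series, 1 array for each culture, chosen by their sample titles and taken over all genes. Both cultures began as mouse embryonic fibroblasts of E13.5 ICR embryos, infected with retroviruses for the thyroid factors Pax8, Nkx2.1 and Foxe1 and the reprogramming factors Oct3/4, Sox2, Klf4 and c-Myc. The 8-factor culture also received the Hhex virus. Both spent 1 week in serum medium and 2 weeks in DMEM/F12 with 1 U/mL thyroid stimulating hormone (TSH), 1 µg/mL potassium iodide and N2/B27 supplements, and RNA was taken on day 21. The third array held follicular cells of adult ICR thyroid after 1 week in that second medium. No array of uninfected fibroblasts was analysed here, and the labels do not say whether a culture was pooled from several embryos or which of 2 named RNA kits it was extracted with.

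Hhex encodes a homeobox transcription factor made in the anterior endoderm, the early thyroid bud, the liver bud and the developing endothelium. In the thyroid it acts with Pax8, Nkx2-1 and Foxe1 to keep the gland's precursor cells, and in other tissues it mostly represses its targets, often together with Groucho (Tle) proteins. The pathways followed below include the interferon response, in which signalling from the interferon receptor switches on antiviral genes through a promoter sequence called the interferon-stimulated response element. They also include the actin-based contractile program of smooth muscle, which depends on Srf, and the Notch pathway, whose targets are the Hes and Hey repressors.

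Levels are log2 signals from which the 75th percentile signal of each array was subtracted, and a difference is the 8-factor level minus the 7-factor level of the same probe. A gene was called higher or lower from a 2-fold difference on its brightest probe. With 1 array a culture there was no replicate check and no test, so every difference is between these RNA samples and not between conditions. In such bulk RNA, fewer cells of a type and less RNA per cell cannot be told apart. The 2 induced arrays lay on the same slide and were read in the same scan, with 78.2% of spots well above background on each. The 75th percentile signal was 1.16 times as high on the 8-factor array, and the spiked-in control RNA was 0.563 times as bright. That control RNA did not set the scaling, and scaling to it would move every difference up. The primary array came from another slide and scan, so its levels are given for orientation only, since slide and culture cannot be told apart there.

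Hhex was read by 2 probes, and they differed in size. The brighter probe had a level of 0.14 in the 7-factor culture, 0.87 in the 8-factor culture and 3.34 in primary cells. The 8-factor culture was thus 1.66-fold higher on it, a difference of 0.73 with a scanner error of 0.20. The other probe had a level of -5.67 in the 7-factor culture, -0.76 in the 8-factor culture and -1.39 in primary cells, a 30.0-fold difference. Both probes were higher where the virus was labelled as given, but only the second passed 2-fold. The files give no probe sequences, so which part of the transcript each probe reads was not analysed here.

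None of the 8 delivered factors passed 2-fold on its brightest probe. Foxe1, a forkhead factor, had levels of 0.72 and 1.12 in the 7-factor and 8-factor cultures, and Nkx2-1 had -6.38 and -5.74. Klf4 had 3.40 and 3.37, and Sox2 had -1.44 and -1.80. Pax8 had a level of -6.85 with 7 factors and was not well above background with 8, at -7.28. Pou5f1, the gene of Oct3/4, was likewise well above background only in the 7-factor culture, at -7.33. Myc had levels of 3.13 and 2.83 on its brightest probe, while its 3 probes ranged in difference from -0.30 to 0.67. Whether these probes read the viral transcripts was not analysed here, as for Hhex. A signal near background therefore does not show that a delivered factor was absent.

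Across the array the cultures were close. Of 18951 named genes, 16275 were well above background in at least 1 of the cultures and were compared, and 91.4% of these lay within 2-fold. The 8-factor culture was higher at 741 genes (4.55%) and lower at 657 (4.04%), together 8.59%. Without scaling between arrays the same rule gave 1203 higher and 339 lower, since the median difference over all genes then moved up by 0.21 from -0.09. Differences past 4-fold were higher at 124 genes and lower at 39, and past 10-fold at 20 and 8. The share called was 14.7% among genes with a mean level between -4.20 and -2.53 and 2.52% among those above 3.61, so calls were commoner at low levels than at high ones. Wherever a share of all genes at a level is given, it covers the 15489 genes measured in both cultures and no bounds.

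Different probes of the same gene gave a measure of how far a single call can be trusted as a reading of that RNA. Of 5685 genes with at least 2 probes well above background in both cultures, 68 were higher by at least 2 probes with none opposed (1.2%), and 33 were lower in the same way (0.58%). The SD of the difference between the brightest and the next probe of a gene was 0.71, against a median scanner error of 0.20 for called genes. Among 335 called genes with a second probe, the second probe differed in the same direction in 249 (74.3%), passed 2-fold in that direction in 90 (26.9%) and passed it in the opposite direction in 12. Across the genes, which are not independent replicates, the probe pairs had a correlation of 0.31. Genes supported by agreeing probes are therefore given first, and single-probe genes are named as such.

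**Figure D1:**
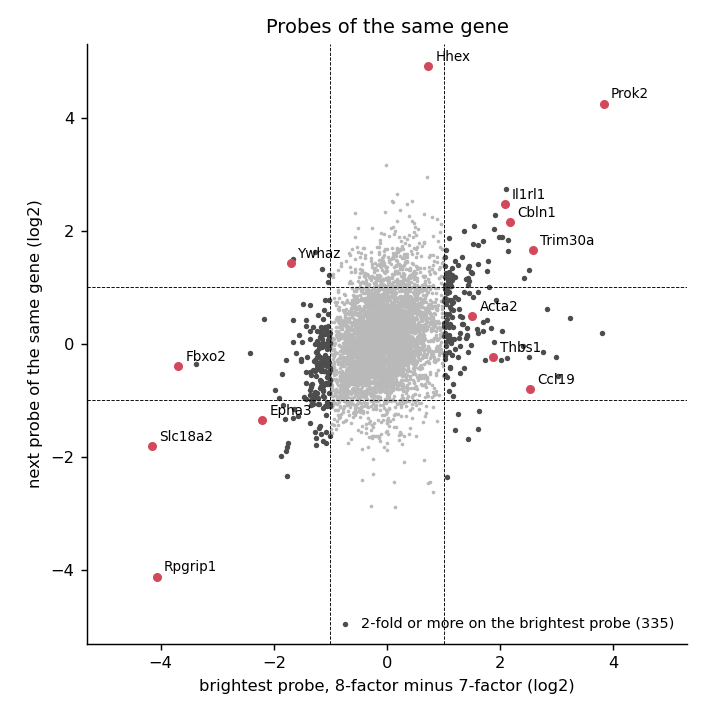
Each point is a gene with at least 2 measured probes, with the difference (8-factor minus 7-factor, log2) of its brightest probe on the x axis and of its next probe on the y axis; dashed lines mark 2-fold, dark points are the 335 genes past 2-fold on the brightest probe, and red points are the genes written beside them. Prok2, Rpgrip1 and Il1rl1 lie near the diagonal, Ywhaz lies at the upper left with its probes opposed, and Hhex passes 2-fold only on its dimmer probe.

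Prok2, which encodes the secreted peptide prokineticin 2, had levels of -5.29 and -1.46 on its brightest probe and -5.39 and -1.14 on the other, so its probes differed by 3.83 and 4.25. It stood at the far end of the genes that were higher on agreeing probes. Cbln1, which encodes a synapse-organising secreted protein, had levels of 0.28 and 2.46 on one probe and -5.31 and -3.16 on the other, 4.52-fold and 4.42-fold higher. The primary culture lay below both induced cultures at Cbln1 on its brightest probe, at -4.00. Il1rl1, the receptor for interleukin 33, was higher on all 3 of its probes, by 2.08 to 2.76 (log2), with levels of -2.06 and 0.02 on the brightest. Col4a3, a chain of the type IV collagen of basement membranes, had levels of -2.86 and -0.76, and its probes differed by 2.10 and 2.73. Ccne2, the S-phase cyclin E2, had levels of -2.54 and -0.39 and differences of 1.83 and 2.14.

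Other genes higher on 2 agreeing probes had smaller differences. Ap1s2, a subunit of a clathrin adaptor, differed by 1.91 and 2.28, and Defb1, a beta-defensin, by 1.61 and 1.74. The embryonic globin gene Hbb-bh1 differed by 1.89 and 2.03 from a 7-factor level of -5.15, and by 0.20 on its brightest probe with a floor at 10% of the 75th percentile signal. Flt1, a receptor for vascular endothelial growth factor, had levels of -0.47 and 0.74 and differences of 1.18 and 1.21. Calca, which encodes calcitonin and its related peptide, had levels of 0.29 and 2.71 on its brightest probe, where primary cells had 8.10, and its other probe differed by 1.16. Cd59a, an inhibitor of complement lysis, differed by 1.37 and 1.45.

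Among genes lower on agreeing probes, Rpgrip1 stood at the far end. This gene of the photoreceptor cilium had levels of 4.14 and 0.07 on one probe and 3.81 and -0.30 on the other, and was 16.8-fold and 17.4-fold lower in the 8-factor culture. The level in primary cells was -0.61, read on another slide and scan. Slc18a2, the vesicular monoamine transporter, had levels of -1.71 and -5.87 and its probes differed by -4.16 and -1.81. Rac2, a small GTPase of blood cells, had -1.97 and -3.75, with differences of -1.78 and -1.89. Epha3, an ephrin receptor, had 0.15 and -2.06, with differences of -2.21 and -1.35. Syt1, a calcium sensor of synaptic vesicles, was lower on 3 measured probes, by -1.28 to -1.82, but its brightest probe gave -0.0037 with the floor at 10% of the 75th percentile signal.

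The remaining lower genes of this kind differed by less. Hspb2, a small heat shock protein of muscle, had levels of 1.02 and -0.73, and its probes gave -1.75 and -1.76. Dner, a Notch-related membrane protein of neurons, had 0.45 and -0.91. Hapln1, which links hyaluronan to proteoglycans, had -1.22 and -3.05, with a second probe at -1.08. The prostaglandin-degrading enzyme Hpgd had 0.86 and -0.32, and Sfrp1, a secreted Wnt antagonist, 3.29 and 2.29. Retnla, a resistin-like secreted protein, and Prkcq, a protein kinase C, were lower from levels already under -3. With normexp background correction neither passed 2-fold (-0.91 and -0.77), nor did Defb1 (0.81).

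**Figure D2:**
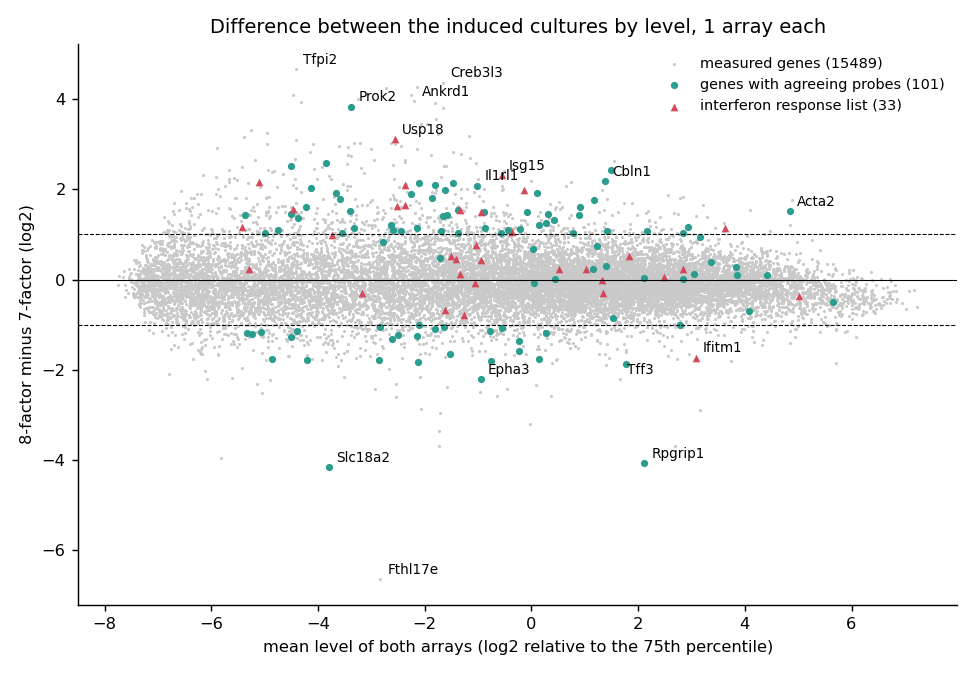
Each point is a gene measured in both cultures, with the mean log2 level of both arrays on the x axis and the difference (8-factor minus 7-factor, log2) on the y axis; dashed lines mark 2-fold, green points are the genes with agreeing probes (68 higher and 33 lower), and red triangles are the 33 genes of the interferon list. Most genes lie between the lines, Prok2 and Rpgrip1 lie near the opposite extremes of the agreeing genes, and the spread is widest at levels below 0.

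Many of the largest differences rested on 1 probe each. Tfpi2, an inhibitor of serine proteases outside the cell, had levels of -6.74 and -2.09 (25.2-fold higher). Creb3l3, a membrane-bound transcription factor of liver and gut, had -3.83 and 0.53 (20.6-fold), and Ankrd1, a cardiac ankyrin repeat protein also made in stretched and injured cells, had -4.16 and -0.22 (15.4-fold). S100a9, a calcium-binding protein of neutrophils, had -6.29 and -2.36, and Mcpt8, a protease of basophils, had -5.26 and -1.26. The chaperone gene Dnajb8 had -4.28 and -0.02, and the P450 gene Cyp2c23 had -4.84 and -0.59. Kcnj1, a potassium channel of kidney, gave no signal well above background with 7 factors and was at least 28.2-fold higher with 8. With a floor at 10% of the 75th percentile signal, that bound was 0.36 on the log2 scale, under the call.

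In the other direction, Fthl17e, a testis ferritin-like gene with close copies that a probe may also read, had levels of 0.49 and -6.15 and was 99.9-fold lower. Lalba, the milk protein alpha-lactalbumin, had -3.85 and -7.80 (15.5-fold lower). Fbxo2, an F-box protein that binds sugar chains, had 4.53 and 0.84 on its brightest probe (12.9-fold lower). Its 3 measured probes, however, ranged from -3.69 to -0.18, so this difference was not shared by all of them. Mfsd4a had -0.05 and -3.42 on its brightest probe and only -0.36 as the difference of the other. Syt10, a synaptotagmin, had 1.58 and -1.61 on its single measured probe.

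The interferon response list leaned higher more than any other of the lists with at least 10 members compared. The lists and their members were chosen with earlier results of these data known, so ranks and shares here and below only describe them. Of its 33 members compared, 13 were at least 2-fold higher (39.4%) and 1 was lower, and the median difference was 0.51 against -0.09 over all genes. The effectors held most of it, with 10 of 17 higher and a median of 1.14. Among the signalling genes 2 of 6 were higher, among the interferon-inducible GTPases 1 of 5, and among the sensors of foreign RNA and DNA 0 of 5. At the middle level of this list, 9.23% of all genes were called in either direction.

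Usp18, a protease that removes Isg15 from proteins and restrains the receptor, had levels of -4.11 in the 7-factor culture, -1.01 in the 8-factor culture and -0.10 in primary cells (8.60-fold higher with 8 factors). Isg15, the ubiquitin-like modifier, had -1.71, 0.60 and 0.75 in the same order (4.97-fold), and Ifit1, which binds foreign RNA caps, had -3.42, -1.33 and -1.45 (4.26-fold). At each of these genes the 8-factor level lay nearer to the primary level than the 7-factor level did. The primary array came from another slide and scan, so no likeness of the cultures can be read from this.

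Rsad2, the antiviral enzyme viperin, had levels of -6.18, -4.03 and -1.69. Rtp4, a membrane chaperone, had -1.13, 0.86 and 1.99. The synthetases of the 2-5A signal that activates RNase L were also higher, with Oas2 at -3.20 and -1.55 and Oas1a at -3.33 and -1.71 in the 7-factor and 8-factor cultures. Their relative Oasl2 had -2.10 and -0.56, and Ifi44 had -5.25 and -3.69. The guanylate-binding protein gene Gbp3 had -1.70 and -0.20, the regulator Irf7 had -6.00 and -4.84, and the surface tether Bst2 had 3.06 and 4.20.

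The central signalling genes differed less. Irf9, a partner of the signalling factors, had 0.40 and 0.63 on its brightest probe and a difference of 1.66 on its other. Stat2 had -0.87 and -1.66, and so lay lower in the 8-factor culture. The lower member past 2-fold was Ifitm1, a membrane protein that blocks virus entry, at 3.95 and 2.21, and Ifitm3 had 5.21 and 4.84. Ifit2 was lower on both of its probes, by -0.68 and -0.94, the opposite direction to Ifit1.

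Only 1 of the 13 higher members, Parp14, had more than 1 measured probe: its 3 probes differed by 1.05, -0.20 and 1.23. Of 6 Schlafen and Trim30 genes outside that list, counted together by symbol after their values were seen, 3 were higher and 2 had a negative difference. Their median of 0.84 went as low as -0.34 over the settings tried. Trim30a, an interferon-induced ubiquitin ligase, had levels of -5.14 and -2.56, and its 2 probes differed by 2.58 and 1.66, the brighter giving 0.76 with the raised floor. Trim30d passed 2-fold on both of its probes, the larger difference being 1.87, but not with normexp on the brightest (0.64), and the near-identical genes of this cluster may share a probe's signal. Cxcl10, a chemokine induced by interferon, had -4.84, -1.81 and -1.14 in the 7-factor, 8-factor and primary cultures, and Ifi27l2b had -5.77, -3.10 and -1.92. Trim30a, Trim30d and Ifi27l2b were picked after their values were seen, as was H2-K1 below.

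Antigen presentation genes differed less uniformly. Of 12 class I presentation genes compared, 1 was higher and 0 lower, with a median of 0.32. That gene, Tap1, which carries peptides into the endoplasmic reticulum, had levels of -2.71 and -1.59. H2-K1, a class I heavy chain whose relatives are very similar in sequence, was higher on all 3 probes, by 0.28 to 1.17. B2m, the light chain, had 4.76 and 4.16. Cd74, the class II invariant chain, had -3.27 and -0.50, and the class II list had 1 of 6 members higher.

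The promoters of the higher interferon genes are shown because many of them hold the response element. Sequences are RefSeq promoters of build GRCm38.p6, searched over 250 bases before the start on both strands for GAAA, any 2 bases and GAAA again, with overlapping matches allowed. Each stretch below is written 5′ to 3′ on the strand of the gene, with matches in capitals, which begin and end with TTTC where they lie on the other strand. They lie at chr4:156200835-156200936 on the minus strand (Isg15), chr19:34640745-34640853 on the plus strand (Ifit1), chr5:120907526-120907585 on the minus strand (Oas1a), chr8:71537547-71537642 on the minus strand (Bst2) and chr5:92349053-92349139 on the minus strand (Cxcl10).
Isg15: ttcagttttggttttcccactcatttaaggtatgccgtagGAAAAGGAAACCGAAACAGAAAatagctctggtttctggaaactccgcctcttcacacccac
Ifit1: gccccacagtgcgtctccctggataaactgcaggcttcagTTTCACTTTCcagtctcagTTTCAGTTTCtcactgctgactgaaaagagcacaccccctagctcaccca
Oas1a: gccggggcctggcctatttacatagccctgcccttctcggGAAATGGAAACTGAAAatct
Bst2: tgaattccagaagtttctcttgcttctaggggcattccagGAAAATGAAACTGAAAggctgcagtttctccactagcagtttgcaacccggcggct
Cxcl10: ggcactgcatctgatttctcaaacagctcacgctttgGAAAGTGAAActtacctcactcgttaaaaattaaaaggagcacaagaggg

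Isg15 holds 3 overlapping matches, beginning 78 to 66 bases before the start, and Ifit1 holds 2, at 104 and 85 bases. Of the 13 higher interferon genes 9 were matched to a promoter, and 6 of these (66.7%) hold the sequence. Of the 15 promoters of interferon genes within 2-fold, 5 hold it (33.3%), and of all 27025 genes with a RefSeq promoter 936 hold it (3.46%; 3.29% of genes compared). Among all genes with agreeing probes, 7 of the 52 promoters of higher genes and 0 of the 25 of lower genes hold it. The homeodomain core ATTAA, the kind of sequence that Hhex-like factors bind, was found before 30.8% of agreeing higher genes and 8.0% of agreeing lower genes, against 21.0% of genes compared and 27.9% of all genes with a promoter. The AP-1 sequence TGANTCA was found before 7 of 52 agreeing higher genes and 6.24% of genes compared (7.82% of all), and the E-box CACGTG before 3 of 52 and 9.08% (6.86% of all). These are counts of letters in a short window, not of binding sites.

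**Figure D3:**
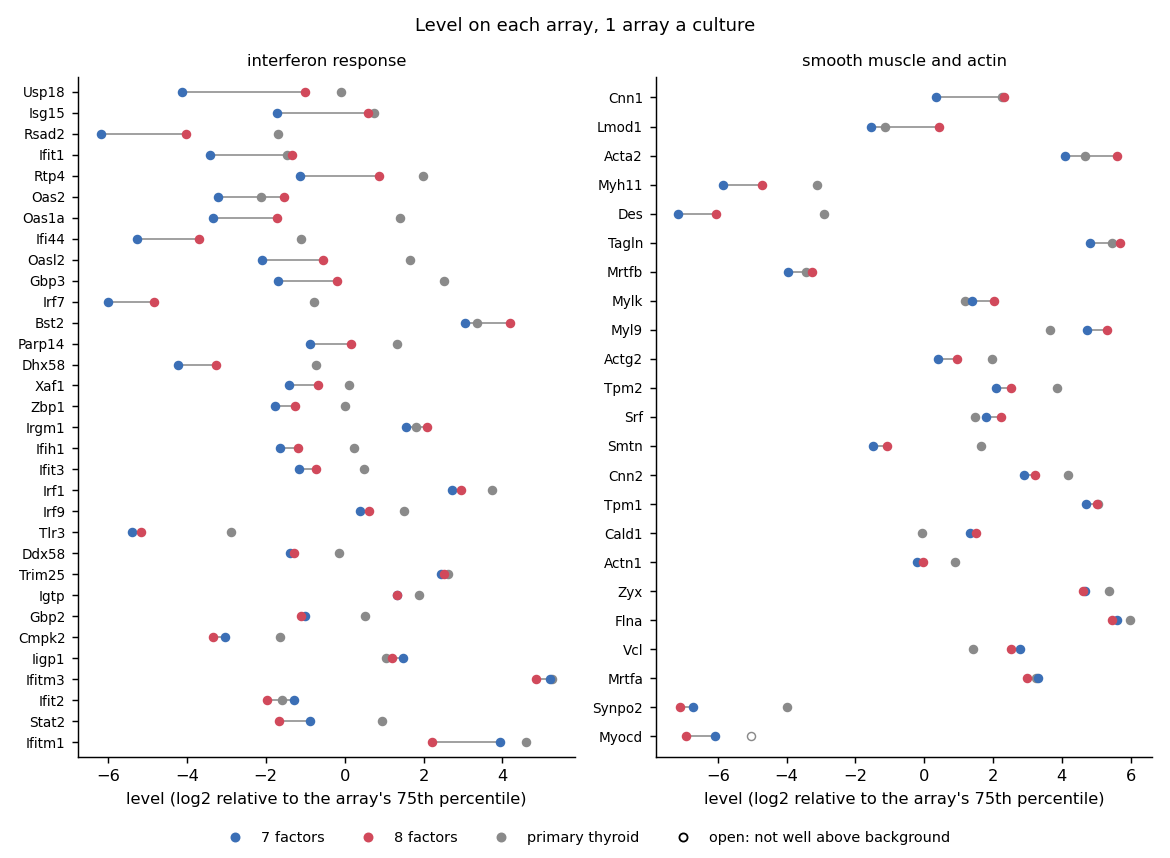
The rows are reported genes of the interferon list (left) or the smooth muscle and actin list (right), sorted by difference, with its log2 level on the x axis in the 7-factor (blue), 8-factor (red) and primary (grey) cultures; open points are not well above background, and levels are comparable within a row only. In the upper rows the red point lies to the right of the blue one, as for Usp18 at -4.11 and -1.01, and at Ifitm1 it lies to the left.

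Smooth muscle contractile genes had the second highest median among those lists. Of 23 members compared 5 were at least 2-fold higher and 0 were lower, with a median of 0.44. These were Cnn1, Lmod1, Acta2, Myh11 and Des, all structural proteins of the contractile apparatus. At the middle level of this list 3.74% of all genes were called. The 4 smooth muscle markers summed to 46.6 times the 75th percentile signal in the 7-factor culture and 106 times in the 8-factor culture, and the part of such cells in these differences was not tested.

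Cnn1, the actin-binding protein calponin, had levels of 0.33 in the 7-factor culture, 2.32 in the 8-factor culture and 2.26 in primary cells (3.98-fold higher with 8 factors). Acta2, smooth muscle actin, had 4.09, 5.60 and 4.66 on its brightest probe, and its 4 probes were all higher, by 0.49 to 2.15. Lmod1, which nucleates actin filaments, had -1.54 and 0.43. Tagln had 4.82 and 5.70 on its brightest probe and a difference of 1.54 on its other, so only 1 of its probes passed 2-fold.

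None of the 4 regulators passed 2-fold. Srf had levels of 1.79 and 2.23, Mrtfa had 3.31 and 2.99, and Myocd had -6.10 and -6.94. Of the general cytoskeletal genes, Flna was at 5.61 and 5.47 and Vcl at 2.77 and 2.53. Cytoplasmic actin Actb, one of the reference genes, had -0.19 and -1.76 on a single probe, the opposite direction to Acta2.

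Of 34 striated muscle genes compared 5 were higher (14.7%) and 1 lower, where 13.9% of all genes at the middle level of the list were called in either direction. The calcium release channel Ryr2 had levels of -6.15 and -3.72, cardiac actin Actc1 had -0.84 and 1.11, and skeletal actin Acta1 had -2.77 and -1.33. Myh6, the atrial myosin heavy chain, had -2.13 and -0.87 on its brightest probe and a difference of 0.62 on its other. The lower member was the regulator Mef2c, at -0.11 and -1.24.

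The CArG box, the sequence that Srf binds, is shown for the 2 sarcomeric actins, because these were higher and hold it in the searched window. They lie at chr2:114052876-114052962 (Actc1) and chr8:123894799-123894888 (Acta1), both on the minus strand.
Actc1: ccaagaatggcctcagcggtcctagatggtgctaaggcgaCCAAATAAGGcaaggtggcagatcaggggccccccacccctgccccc
Acta1: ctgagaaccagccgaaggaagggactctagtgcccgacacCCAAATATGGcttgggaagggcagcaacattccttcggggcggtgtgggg

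None of the 4 promoters of higher smooth muscle genes found in RefSeq holds a match to the searched CArG sequence in that window, against 4 of 15 for members within 2-fold and 1.62% of all genes. Matches farther from the start or inside the gene were not searched, and sites that depart from the searched sequence would be missed.

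Matrix genes differed in both directions. The protease gene Mmp3 had levels of 1.89 and 3.68, and Mmp10 had -4.87 and -2.64. Of 15 matrix metalloproteinases compared 4 were higher (26.7%) and 0 lower, where 13.0% of all genes at this level were called. With a floor at 10% of the 75th percentile signal Mmp10 gave 0.69, under the call. Fibronectin, Fn1, had 0.89 and 2.59 on its brightest probe, and its 3 probes gave 1.69, 1.82 and -0.21. The thrombospondin gene Thbs1 had 1.62 and 3.49 on its brightest probe, but its other probes gave -0.13 and -0.24, so they did not share it. Snai2, a repressor of epithelial genes, had 1.42 and 2.94, whereas the mesenchymal homeobox gene Prrx1 had 2.21 and 0.56 with probes from -1.65 to 0.96.

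The listed collagens and proteoglycans lay lower on the whole. Of 28 listed collagens 23 had a negative difference, with a median of -0.37, but only 1, Col4a5, passed 2-fold lower, at -0.63 and -3.50. Over all 43 Col genes grouped by symbol, 5 were higher and 1 lower. Their median was -0.12, against -0.09 over all genes. The 3 higher collagens of the list were Col4a3, Col7a1 (-0.38 and 1.69) and Col17a1 (-5.55 and -3.94), all of epithelial basement membranes or anchoring structures. The proteoglycans Omd (1.36 and -0.02), Kera (-0.05 and -1.24) and the link protein Hapln1 were lower. The 7 fibroblast markers were well above background in both cultures and summed to 371 times the 75th percentile signal with 7 factors and 243 times with 8. Their part in these differences was not tested.

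Of 17 Notch genes compared 4 were at least 2-fold higher (23.5%, against 4.55% of all genes) and 0 lower. Among all genes at the middle level of the list, 9.23% were called in either direction. All 4 higher Notch genes were among the 6 targets, and the difference from the 7 ligands and 4 receptors was not tested. With normexp 1 of the 4 calls was left and the median went from 0.41 to 0.06, and 2 were left without the trend correction or with the raised floor. Hes1, a repressor of differentiation, had levels of -2.03 in the 7-factor culture, -0.51 in the 8-factor culture and -0.09 in primary cells. Its relative Hes5 had -4.92 and -3.85, and Nrarp, a feedback inhibitor of the pathway, had -5.70 and -4.17. Heyl had -1.47 and -0.40 on its brightest probe and a difference of 0.44 on its other. Hey1, with -1.48 and -0.82, did not pass 2-fold, nor did the receptor Notch3, with 1.56 and 2.02.

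Wnt pathway genes were called about as often as others of their level. Of 49 compared 5 were lower (10.2%) and 1 higher (2.04%), where 13.0% of all genes at the middle level of the list were called in either direction. The lower genes were 3 of 11 inhibitors and 2 of 14 receptors. Wif1, which binds Wnt proteins outside the cell, had levels of 0.73 and -0.93, Sfrp2 had 1.48 and 0.07, and the receptor Fzd4 had 1.27 and 0.12. The coreceptor Ror2 had -1.33 and -2.75 on its brightest probe but a difference of 0.32 on its other. The ligand Wnt10a was higher, at -2.84 and -0.90, and none of the 8 Wnt target genes passed 2-fold.

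Other signalling lists gave few calls. Of 45 TGF-beta and BMP genes 2 were higher and 1 lower, near the background share, and of 15 IGF and growth hormone genes 0 passed 2-fold. Among 20 EGF, PDGF and HGF genes 4 were higher (20%) and 1, the ligand Btc, was lower (5%). The share called among all genes at this level was 9.23%. The higher genes included the ligands Ereg (-7.21 and -5.42) and Pdgfd (-4.61 and -2.77) and the receptor Pdgfrb (0.98 and 2.01). Fgf7, a growth factor for epithelium, had -0.79 and 0.53. The Hedgehog receptor and target Ptch1 had -3.83 and -5.03.

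Genes tied to Hhex in earlier work were split. Of 11 compared, 3 were higher (27.3%) and 2 lower (18.2%), where 13.0% of all genes at this level were called. The endothelial gene Esm1 had levels of -4.44 and -2.45, the angiopoietin receptor Tek had -3.48 and -2.09, and Flt1 is described above. The corepressor gene Tle1 had 2.28 and 1.20 on its brightest probe and a difference of 0.26 on its other, and the receptor Kdr had -2.62 and -3.73. The endothelial cadherin Cdh5 had -2.71 and -4.15, and its other probe differed by -0.69. Of the 3 endothelial markers Pecam1 was not well above background in either culture.

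The chemokines and their receptors were mixed, with 4 of 23 higher and 3 lower (17.4% and 13.0%), where 9.23% of all genes at this level were called. Ccl2, which draws monocytes, had levels of 2.40 and 4.05, and Ccl20 had -3.42 and -1.65. Cxcl16 had -3.18 and -1.90 on its brightest probe but a difference of 0.10 on its other. The macrophage chemokines Ccl3 (-5.35 and -6.64) and Ccl4 (-5.97 and -7.41) were lower, but with normexp they gave -0.57 and -0.33, under the call. Ccl19 had -2.89 and -0.37 on its brightest probe and a difference of -0.80 on its other, so its probes were opposed.

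Of 17 macrophage and myeloid genes 4 were lower (23.5%) and 1 was higher (5.88%), with a median of -0.75, where 13.9% of all genes at this level were called. With normexp or the raised floor 1 was lower. Clec4d had levels of -4.45 and -6.40, Marco had -1.18 and -2.52, and Tyrobp had -4.30 and -5.57. The leukocyte phosphatase gene Ptprc was higher, at -5.15 and -3.71. Of 15 complement genes 5 were lower (33.3%, against 4.04% of all genes), with a median of -0.91. With normexp or the raised floor 2 were lower, and the median was -0.58 with normexp. Serping1, the C1 inhibitor, had 3.63 and 2.56, C1qc had -5.41 and -6.92, and C1s1 had 3.39 and 1.84 on its brightest probe but a difference of 0.16 on its other. The macrophage markers Adgre1, Csf1r and Tyrobp were well above background in both cultures, and Cd68 had no named probe. They summed to 0.126 times the 75th percentile signal with 7 factors and 0.0691 with 8, and their part in the lower lists was not tested.

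Of 19 thyroid function genes compared 1 was higher (5.26%) and 3 were lower (15.8%), with a median of -0.52. At the middle level of this list 14.7% of all genes were called in either direction. Slc5a8, a monocarboxylate transporter of the apical membrane, had levels of -2.90 in the 7-factor culture, -0.38 in the 8-factor culture and -0.04 in primary cells (5.72-fold higher with 8 factors). Kcne2, a potassium channel subunit, had 1.41, 0.00 and -7.43, the primary signal being at background. The deiodinase genes Dio1 (-5.28 and -6.28) and Dio2 (0.97 and -0.04) were lower by 2.00-fold and 2.01-fold, at the edge of the call.

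Tg, the precursor protein of thyroid hormone, had levels of -2.93, -3.85 and 8.89, and its probes differed by -0.93 and -0.87. The receptor Tshr had -4.67, -4.70 and -1.48. Of the 6 follicular cell markers 5 were well above background with 7 factors and 4 with 8, against 6 in primary cells, and they summed to 0.202 times the 75th percentile signal with 7 factors and 0.145 with 8. Slc5a5, the iodide symporter, was well above background only in the 8-factor and primary cultures, at -7.11 and -3.25, and its bound was 1.60-fold.

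Trefoil and mucous genes were the list most often lower. Of 14 compared 5 were lower (35.7%, against 4.04% of all genes) and 0 higher, with a median of -0.54. Among all genes at this level, 9.23% were called in either direction. Tff3, a trefoil peptide of intestinal mucus, had levels of 2.77 in the 7-factor culture, 0.56 in the 8-factor culture and -4.86 in primary cells. Spink4, a protease inhibitor of goblet cells, had -1.39 and -3.70, Agr2, a folding enzyme for mucins, had -1.09 and -2.74, and Tff2 had -1.19 and -2.81. Tff1 had 6.26 and 5.16, but its difference was -0.73 with quantile normalisation and -0.88 without scaling, both under 2-fold. Clca1 (6.29 and 6.05) and Gkn2 (4.51 and 3.83) did not pass 2-fold. Each was read by 1 probe.

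**Figure D4:**
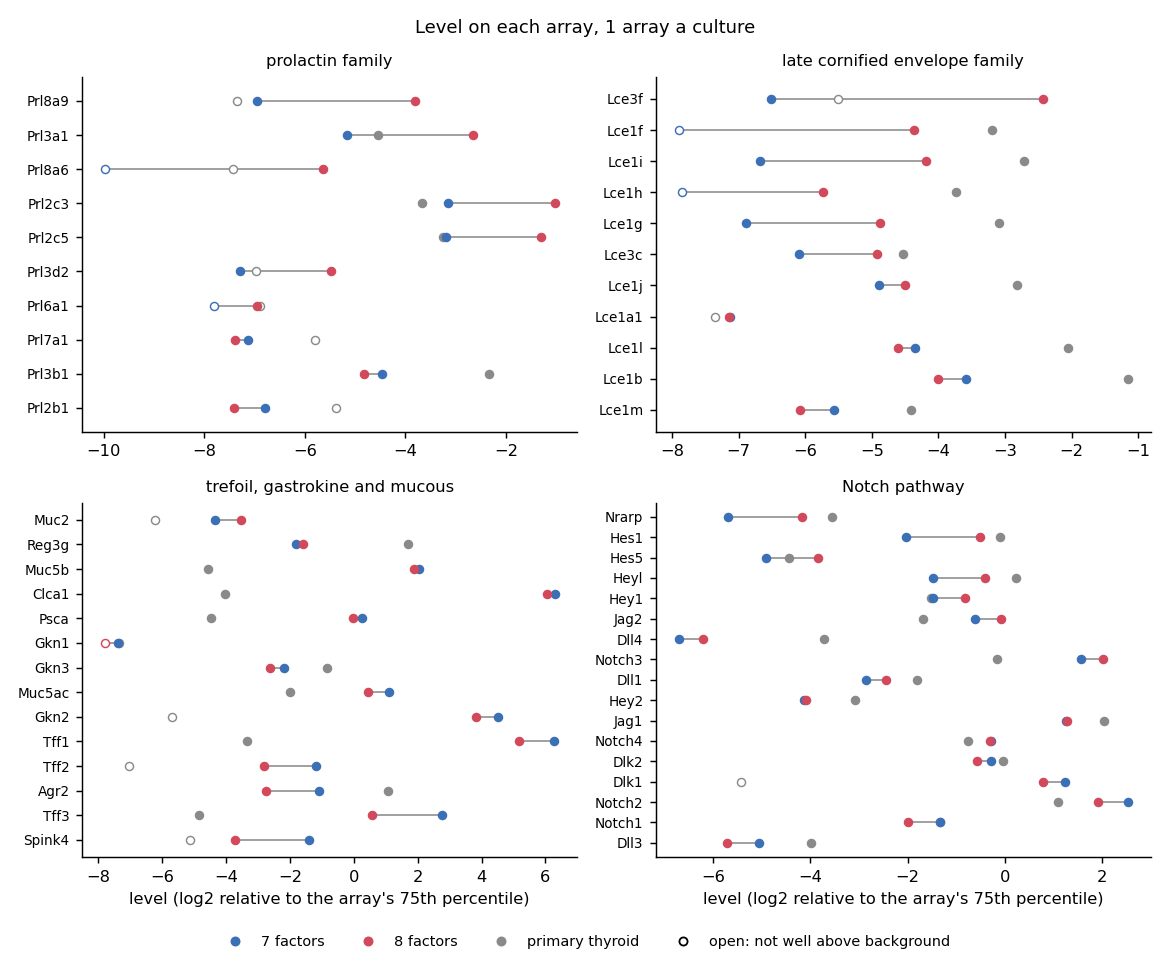
Each row is a gene of the prolactin family, the late cornified envelope family, the trefoil and mucous list or the Notch list, with its log2 level on the x axis in the 7-factor (blue), 8-factor (red) and primary (grey) cultures; open points are not well above background, and levels are comparable within a row only. The red points lie to the right for 6 prolactin and 6 envelope genes by 2-fold or more, and to the left at Tff3 and Spink4.

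When genes were grouped by the letters of their symbol, 2 of 286 families of at least 8 members had more than 50% of members called, and both were dim. The prolactin family, hormones mostly made in the placenta, had 6 of 10 members higher and 0 lower. Among genes measured in both cultures at this level, 7.10% were called, while the family's count includes bounds. Prl8a9 had levels of -6.95 and -3.80, and Prl3a1 had -5.17 and -2.66. Prl2c3 and Prl2c5 were each higher on 2 probes, with levels of -3.16 and -1.03, and -3.20 and -1.30, but these copies are nearly identical and their probes may read the same RNA. The late cornified envelope genes, which harden the outer skin, had 6 of 11 higher and 0 lower. For genes measured in both cultures at their level the share called was 13.9%, while the envelope count also includes bounds. Lce3f had -6.51 and -2.43, and Lce1i had -6.68 and -4.19, while the probes of Lce1g gave 2.01 and -0.28.

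Some smaller families were picked after their values were seen. Of 5 granzyme genes compared 3 were higher, bounds included, where 7.10% of genes measured in both cultures at this level were called. Gzme had levels of -6.91 and -3.60, Gzmc was at least 6.06-fold higher and Gzmd at least 3.13-fold. The neurofilament genes Nefm (-3.92 and -0.96) and Nefl (-5.56 and -2.75) and the growth cone gene Gap43 (-4.91 and -1.98) were higher, and Nefh (-2.89 and -2.81) was not. In the neural and glial list, 4 of 21 were higher and 1, Syt1, lower, where 14.7% of all genes at this level were called.

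Keratinocyte and neuroendocrine genes went in both directions. Of 18 stratified epithelium genes 3 were higher and 3 lower (16.7% each), where 14.7% of all genes at this level were called. Krt5, the basal keratin, had levels of -3.54 and -1.66, whereas Slurp1 had 4.86 and 3.48 and Calml3 had -1.03 and -2.54. Scg5, a chaperone of secretory granules, had -6.02 and -3.62, and the granule protein gene Chga had -5.47 and -6.80. Of the pluripotency genes 3 of 15 were lower (20%) and 0 higher, where 14.7% of all genes at this level were called. None of these 3 stayed past 2-fold in every setting tried. One of them, the nuclear receptor gene Nr0b1, had levels of -4.85 and -6.29 and differed by -0.69 with normexp.

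Sterol genes were higher in part. Of 24 cholesterol genes compared 4 were higher (16.7%) and 0 lower, where 4.52% of all genes at this level were called. The higher genes included the enzymes Fdps (1.24 and 2.47), Mvk (-2.37 and -1.31) and Cyp51 (-1.89 and -0.85), the last with 3 probes from 0.53 to 1.04.

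Ribosomal protein and histone genes lay mostly lower. Of 79 ribosomal protein genes 72 had a negative difference, with a median of -0.51, and 9 passed 2-fold lower. All measured genes at this level had a median of -0.19, and 2.07% of them were lower. Relative to all genes, the median of the family ranged from -0.43 to -0.07 over the settings tried. Of 34 replication-dependent core histone and H1 genes 31 had a negative difference, with H2ac4 at 4.60 and 1.72, although copies of these genes are alike. Their median was -0.50, where measured genes at their level had -0.07. Both groups were picked as whole families after their values were seen. Of 12 common reference genes, which did not set the scaling used here, 3 were lower (25%) and 0 higher. A negative difference was found at 10 of them, with a median of -0.50, where 2.52% of all genes at this level were called. Rplp0 had 6.28 and 5.15, Actb is given above, and Ywhaz had 3.42 and 1.71 on its brightest probe but a difference of 1.42 on its other. Hprt had 4.94 and 5.01 and Gusb had 2.58 and 2.52. Of 32 cell cycle genes compared Ccne2 was the only one past 2-fold, and none of the unfolded protein response, proteasome or immediate early genes passed it.

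**Figure D5:**
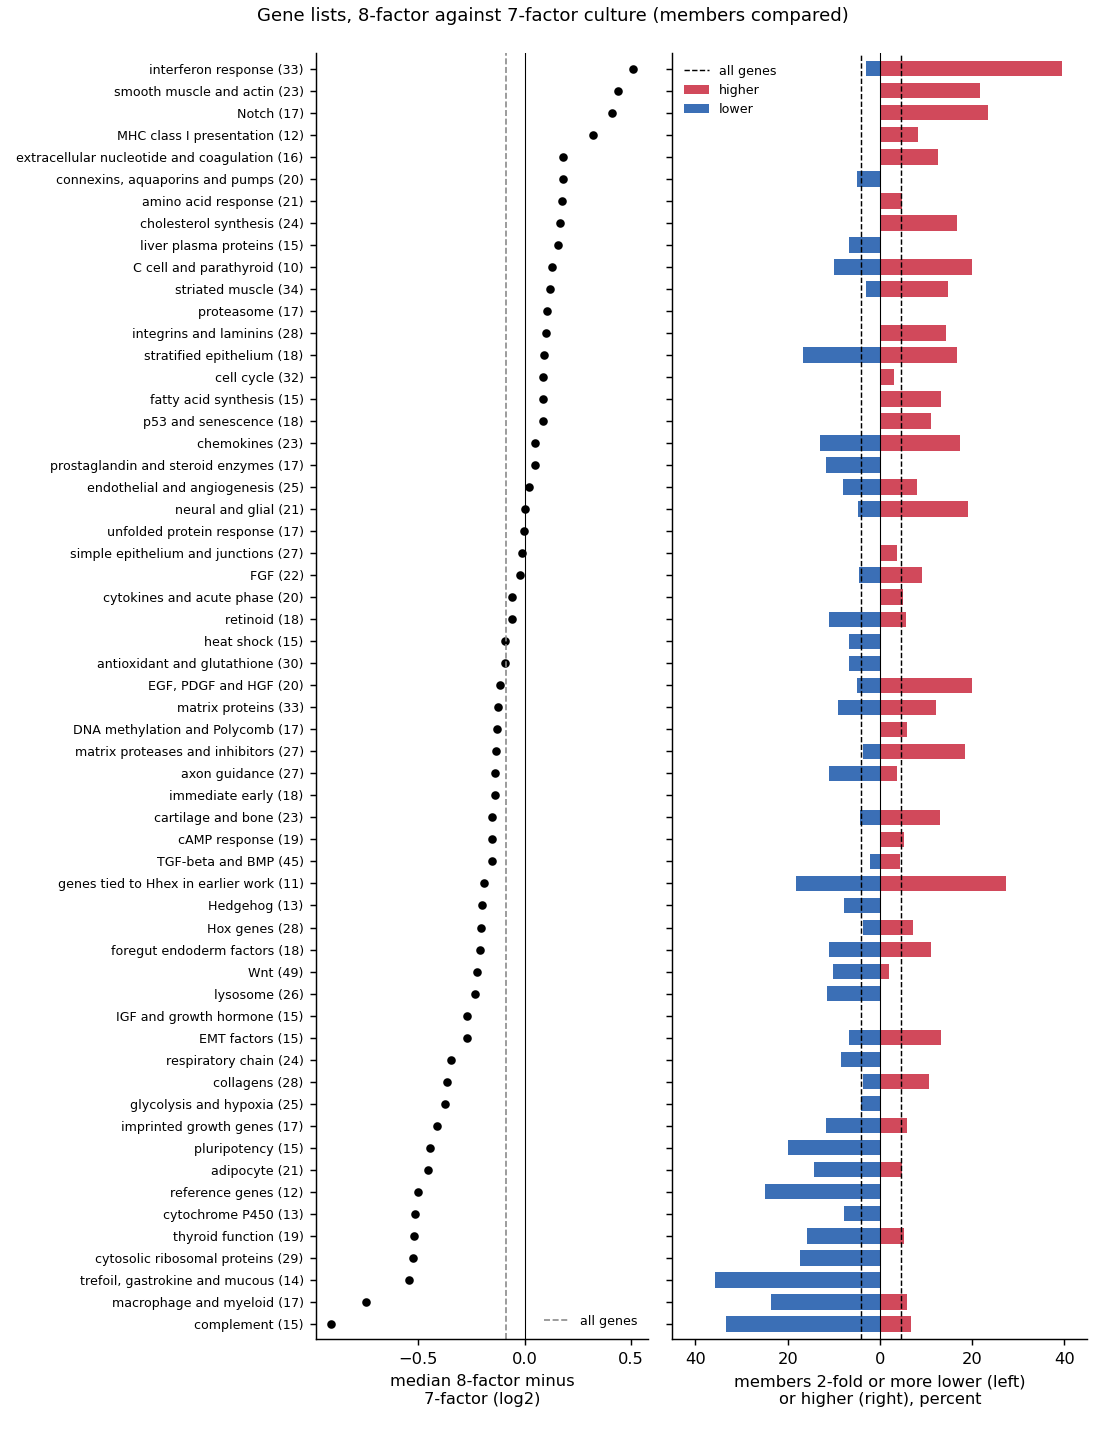
Rows are the gene lists with at least 10 members compared (numbers in brackets), sorted by median difference (8-factor minus 7-factor, log2) on the left, with the percent of members at least 2-fold lower (blue) or higher (red) on the right; dashed lines mark all genes, at -0.09 on the left and 4.04% and 4.55% on the right. The interferon list has 39.4% of members higher, and the trefoil and complement lists have 35.7% and 33.3% lower.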

How the data were processed

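Cy3-labelled RNA of 3 cultures was read on Agilent arrays, 1 array a group, so the number of arrays limits the precision. The deposited intensity values are processed signals: background was subtracted and trends across the array corrected by Feature Extraction 11.5.1.1, per the file headers, while the submitters' processing notes name version 10.5. The deposited value table equals these signals unscaled (0 of 45018 values differ by over 0.01%), although the design text names a percentile shift.

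Control and outlier spots were left out, copies of a probe averaged, and log2 signals taken relative to each array's 75th percentile (Python 3.11.15, pandas 2.3.3). Of 41171 probes, 27815 (67.6%) were named through RefSeq accessions with GRCm38.p6, used for names and promoters only; 0 had several names. A gene is represented by its brightest probe over the 3 arrays. A probe well above background in 1 culture gives a bound against the lowest signal well above background, or its own if higher. Processing was tested on simulated data. Genes were named by a rule taking the largest agreeing, measured and bounded differences and up to 5 called members of each of 64 lists, other names being marked or given for contrast. The members and lists were chosen with earlier results of these data known. Alternatives covered background correction (normexp, limma 3.58.1, offset 50), scaling, probe choice, floor and threshold. Some members of these lists are counted but not reported by name here.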

Additional observations from a re-analysis of the deposited data

Results flagged for a closer look

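Probes without a gene name also carried differences, and no comparison above uses them. Among 9041 such probes that were well above background in at least 1 induced culture, 967 were 2-fold or more higher in the 8-factor culture (10.7%) and 661 were lower (7.31%). Among 24128 named probes the shares were 5.70% and 4.36%.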

How the results depend on the processing

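No paired analysis was possible because each group has 1 array, and for the same reason no replicate could be left out. With normexp background correction (on the median spot signal, the mean not being among the columns used) there were 424 higher and 420 lower genes, 33 and 18 with agreeing probes, 3 higher smooth muscle genes, and 3.44 for the second Hhex probe. With a floor at 10% of the 75th percentile these were 388, 362, 31, 16, 3 and 2.56. Without scaling they were 1203 and 339 genes and 131 and 15 with agreeing probes; the first Hhex probe then gave 0.94, and the interferon and smooth muscle medians were 0.72 and 0.65. When arrays were shifted to their medians, lower genes outnumbered higher ones (802 against 646), and 53 lower genes had agreeing probes. A 1.5-fold threshold gave 1894 higher and 2503 lower genes (226 and 250 agreeing), and a 3-fold threshold 238 and 109 (18 and 7). Hspa8 and Sprr2a1, lower on their brightest probe, became 0.18 and 0.0893 as means over probes, and Lce1g, higher on its probe, became -0.28 when probes were chosen over the induced arrays alone. The cause of these changes was not tested. Over 12 settings, the main one included, the median stayed positive for the interferon (0.42 to 0.72), smooth muscle (0.31 to 0.65), Notch (0.06 to 0.62), prolactin (0.55 to 2.07) and envelope (0.38 to 1.37) genes. It stayed negative for trefoil (-0.67 to -0.33), complement (-0.97 to -0.58), macrophage (-0.80 to -0.32), thyroid function (-0.58 to -0.31), Wnt (-0.29 to -0.01), listed collagen (-0.43 to -0.15), ribosomal (-0.57 to -0.13) and histone (-0.58 to -0.29) genes. No setting scaled the arrays to the spiked-in control RNA, so these signs hold only for the settings tried. The alternative without the trend correction was chosen after seeing the data. Naming probes by a gene column was not run, as the files used have none. Of the 145 genes named in the text past 2-fold, 113 stayed past it with normexp and 99 with the raised floor, under which 32 had no value. Single genes differed in range: Tfpi2 ranged from 1.23 to 4.86, S100a9 from 0.97 to 4.14 and Lce3f from 0.89 to 4.29, against 1.96 to 2.30 for Ifit1 and 1.93 to 2.20 for Cnn1.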
